A study of Mus musculus with 79 samples.

Results

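The comparison described here sets D1 neurons of the mouse dorsal striatum against D2 neurons of the same region, across all genes. Its members are the libraries labelled as dorsal striatum with either the D1 receptor-expressing or the D2 receptor-expressing neuron as the cell type: 15 D1 libraries and 16 D2 libraries, 31 of the 79 libraries in the series. The libraries hold ribosome-bound mRNA obtained by translating ribosome affinity purification (bacTRAP), in which a bacterial artificial chromosome (BAC) transgene places enhanced green fluorescent protein fused to the ribosomal protein L10a under the promoter of a chosen gene, so that an antibody to the fluorescent protein recovers the ribosomes of the cells that use that promoter. The D1 mice carried the transgene under the Drd1a promoter and the D2 mice under the Drd2 promoter. Both lines were heterozygous on the C57BL/6J background, no drug or other treatment is named in the labels, and the labels used here give no age. Each library pooled punched tissue of 3 mice, with males and females in every pool (9 D1 and 9 D2 pools had 2 males, the other 6 and 7 had 1). The transgene marks cells by promoter use, so a D2 library can hold ribosomes of any Drd2-expressing cell of the punch and not of projection neurons alone. A pair of further sets of libraries serves for comparison: ventral striatum (15 D1 and 14 D2) and D1 prefrontal cortex (19).

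The dorsal striatum is the main input station of the basal ganglia, and nearly all of its neurons are GABAergic spiny projection neurons. Those of the direct pathway carry the D1 receptor, which couples to a stimulatory G protein and raises cyclic AMP. Those of the indirect pathway carry the D2 receptor, which couples to inhibitory G proteins and lowers cyclic AMP. Both classes receive cortical and thalamic afferents on their dendrites, and they differ in receptors, peptides and axonal targets.

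Expression is given as the deposited CPM (scaled read counts), in which a library's reads per gene are scaled to a total that is larger than its reads in listed genes. Of 25899 listed genes, 11090 reached 1 CPM in at least 15 of the 31 libraries and were tested with limma on log2(CPM + 0.5). All log2 differences below are D1 minus D2 on that scale, where the added 0.5 shrinks the change of a gene near the floor, and the value after ± is the standard error beside a log2 difference and the SD beside a mean CPM (n = 15 D1 and n = 16 D2). A gene is called where its two-sided Benjamini-Hochberg adjusted p over all tested genes was under 0.05. Library names start with 1 of 4 codes whose meaning is not stated, and the codes were spread unevenly: the D1 group held 11 libraries named EM, 3 named BdP and 1 named JAG, and the D2 group held 8 named EM and 8 named OdP. Within the D2 group alone, 3341 genes differed between EM and OdP libraries, 2015 of them higher in EM. A second fit was therefore made within the 11 D1 and 8 D2 libraries named EM, and "called in both fits" means called in the same direction in all 31 libraries and within EM. Reads in listed genes ran from 9.57 to 28.0 M reads (median 16.3 M) in D1 libraries and from 7.35 to 30.2 M (median 20.3 M) in D2 libraries. In 4 libraries, all named EM (D1 replicates 4 and 13, D2 replicates 2 and 6), the median correlation of log2 values with the rest of the group was 0.887 to 0.926, against 0.951 to 0.980 in the others. Because the tissue is bulk material, fewer cells of a type and less RNA per cell cannot be told apart.

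The receptor genes followed the labels. Their promoters also drive the transgenes, and whether the BACs add reads to these genes is not given in the sources used here. Drd1a, the older symbol of the D1 receptor gene, was at 163 to 288 CPM (median 232) in the D1 libraries and at 6.86 to 40.6 CPM (median 12.1) in the D2 libraries. The groups did not overlap, and the log2 difference was 3.98 ± 0.16 with an adjusted p of 5.1e-21 (limma). Drd2 was at 2.16 to 12.2 CPM (median 5.53) in the D1 libraries and at 828 to 1596 CPM (median 1146) in the D2 libraries, a log2 difference of -7.47 ± 0.15. Every D2 library lay above every D1 library.

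In the fit of all 31 libraries 1424 genes (12.8% of those tested) were called higher in D1 and 1447 (13%) lower. Within EM libraries 655 (5.91%) were called higher and 645 (5.82%) lower. In both fits 634 genes (5.72%) were higher and 604 (5.45%) lower, and these counts are the background for every list below. Among them, 261 of the higher and 102 of the lower genes differed at least 2-fold, and in 73 and 58 the lowest library of one group lay above the highest of the other. Scaling to the reads in listed genes instead of the authors' total gave 1675 higher and 1145 lower in the pooled fit and moved the median over all genes from 0.02 to 0.08. Leaving out the 4 libraries named above raised the counts called in both fits to 991 and 897.

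Within EM libraries the log2 differences of 4 genes described below were as follows. Isl1 differed by 3.14 ± 0.17 overall and 3.01 within EM, and Chrm4 by 3.41 ± 0.15 and 3.18. Adora2a, a receptor lower in D1, differed by -5.74 ± 0.24 and -5.85. Sp9, a transcription factor lower in D1, differed by -2.78 ± 0.11 and -2.66. Every gene named below as higher or lower was called in both fits unless its sentence says otherwise, and 0 of 114 genes described here, a part of those that the naming rule gave, changed direction under any alternative run. Because the genes were mostly chosen for calls in the same direction in both fits, a change of direction was unlikely from the start.

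Genes that were higher in D1 often stood higher still in D1 neurons of prefrontal cortex. A prefrontal mean at least 2 times the higher of the dorsal means was found in 745 (6.72%) of the tested genes, in 262 (41.3%) of the genes higher in D1 and in 4 (0.662%) of those lower. Markers of cortical glutamatergic neurons moved with the D1 group: 9 of 12 tested were higher in both fits, and 2 (Tle4 and Fam84b, which were higher in the dorsal striatum than in the cortex) were lower, Tle4 with an adjusted p of 0.127 without OdP libraries. No marker was at 0 in all dorsal libraries. The summed level of the 17 markers ran from 159 to 281 CPM in D1 libraries and from 119 to 183 CPM in D2 libraries. Slc17a7, the vesicular glutamate transporter of cortical projection neurons, was at 10.1 to 54.4 CPM (median 38.6) in D1 libraries, 0.709 to 11.8 CPM (median 3.01) in D2 libraries and 259 CPM in prefrontal cortex, with 14 of 15 D1 libraries above every D2 library. The part of cortical RNA in the differences below was not tested, and the prefrontal mean is given beside each named gene that met the 2-fold criterion.

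**Figure D1:**
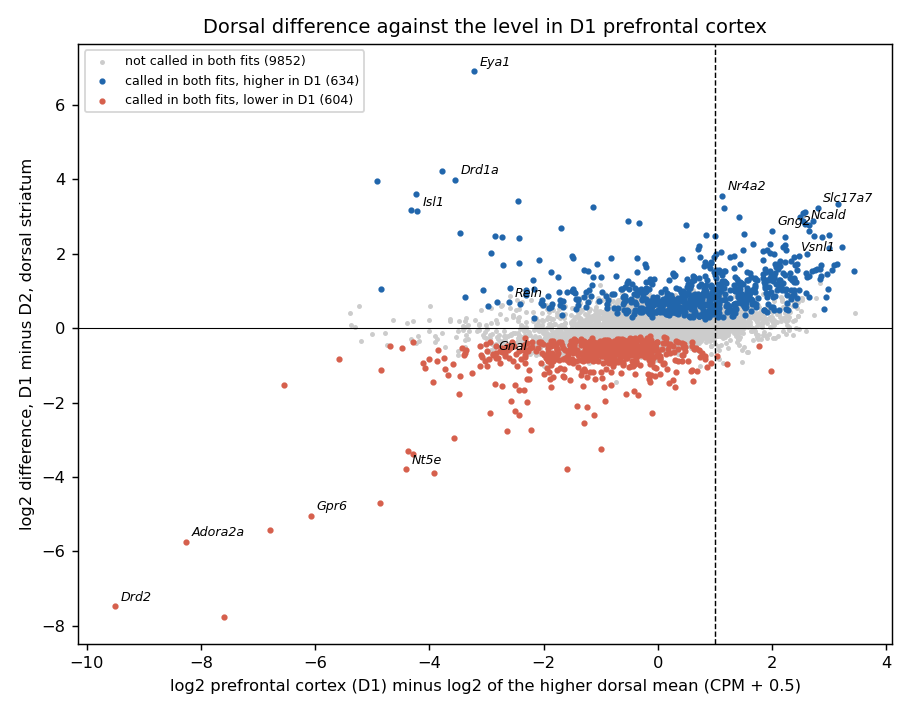
Each point is 1 of 11090 tested genes; the vertical axis is the log2 difference, D1 minus D2, in all 31 dorsal libraries, the horizontal axis is the log2 mean in D1 prefrontal cortex minus the log2 of the higher dorsal mean (both of CPM + 0.5), and the dashed line marks a log2 ratio of 1. Genes called higher in both fits (634, blue) reach far to the right of the line, with Slc17a7, Ncald and Vsnl1 among them, while genes called lower (604, red) lie almost all to its left.

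Markers of other cells differed too. Oligodendrocyte markers were lower in D1: 6 of 10 tested were called lower in both fits and 0 higher (0 also at an unadjusted p under 0.05 in both limma fits and by edgeR and DESeq2). Their sum over 14 genes ran from 78.2 to 243 CPM in D1 libraries and from 107 to 300.3 CPM in D2 libraries. The 8 cholinergic interneuron markers summed to 2.16 to 6.67 CPM in D1 and 7.03 to 25.5 CPM in D2 libraries, without overlap. Only 2 of them were tested, of which 1 was lower in both fits and 1 was not called. Slc5a7, the choline transporter of cholinergic cells, was at 0.338 ± 0.233 CPM against 3.98 ± 2.38 CPM. The summed level of 17 GABA interneuron markers ran from 33.2 to 75.0 CPM in D1 and from 12.0 to 37.3 CPM in D2 libraries. Of 9 tested, 3 were higher and 1 lower in both fits, and 2 of the 3 and the 1 lower met the 2-fold cortical criterion. Sst and Npy, the peptide precursors of somatostatin and neuropeptide Y, were called higher in D1 (prefrontal means 73.1 and 22.3 CPM), and Maf, a transcription factor, was called lower (prefrontal mean 10.2 CPM). Astrocyte markers summed to 116 to 330.1 CPM and 159.8 to 231 CPM, microglial markers to 2.78 to 8.10 CPM and 2.77 to 6.84 CPM. Of 7 astrocyte markers tested, 2 were higher in the pooled fit and 0 in both fits. Without the 4 libraries of lower correlation, 2 were higher in both fits. Choroid plexus and ependymal markers, 10 genes, had a median sum of 19.9 CPM (highest 61.6 CPM) in D1 and 37.3 CPM (highest 83.3 CPM) in D2 libraries, with overlap, and of 4 tested 2 were lower in the pooled fit, 1 of them in both fits. None of the 4 was higher by limma, edgeR or DESeq2 or at an unadjusted p under 0.05 in both limma fits (0 in each). The part of these cells in the differences below was not tested.

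To show regulatory sequence beside the values, the 250 bases before the annotated start are printed for 4 genes with large differences: Isl1 and Chrm4, higher in D1, and Gpr6 and P2ry1, higher in D2. They come from RefSeq, build GRCm38.p6, 5′ to 3′ in the direction of the gene. The intervals are chr13:116309689-116309938 (minus strand) for Isl1, chr2:91921939-91922188 (plus) for Chrm4, chr10:41072291-41072540 (minus) for Gpr6 and chr3:61002535-61002784 (plus) for P2ry1. Capitals mark the cyclic AMP response element TGACGTCA, its half-site TGACG and the GC box GGGCGG, searched on both strands.
Isl1: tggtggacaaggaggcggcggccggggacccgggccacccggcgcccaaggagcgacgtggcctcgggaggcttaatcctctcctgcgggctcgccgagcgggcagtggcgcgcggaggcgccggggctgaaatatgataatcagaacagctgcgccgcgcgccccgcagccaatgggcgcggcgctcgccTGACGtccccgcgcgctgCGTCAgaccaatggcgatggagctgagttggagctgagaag
Chrm4: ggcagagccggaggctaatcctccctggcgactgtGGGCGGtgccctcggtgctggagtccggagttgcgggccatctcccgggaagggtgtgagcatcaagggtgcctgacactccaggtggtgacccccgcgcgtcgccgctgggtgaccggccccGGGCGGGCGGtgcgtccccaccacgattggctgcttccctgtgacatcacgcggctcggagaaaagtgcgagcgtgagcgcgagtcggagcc
Gpr6: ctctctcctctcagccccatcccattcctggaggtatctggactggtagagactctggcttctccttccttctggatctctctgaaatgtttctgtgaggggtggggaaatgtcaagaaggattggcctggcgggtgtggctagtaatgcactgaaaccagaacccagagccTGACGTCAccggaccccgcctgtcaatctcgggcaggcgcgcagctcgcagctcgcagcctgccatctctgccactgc
P2ry1: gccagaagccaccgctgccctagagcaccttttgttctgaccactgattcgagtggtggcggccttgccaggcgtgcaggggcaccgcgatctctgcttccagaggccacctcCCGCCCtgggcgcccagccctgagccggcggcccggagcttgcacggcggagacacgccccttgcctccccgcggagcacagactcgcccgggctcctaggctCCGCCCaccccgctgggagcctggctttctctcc
Gpr6 held 1 full cyclic AMP element, Isl1 held 2 half-sites, Chrm4 held 3 GC boxes of which a pair overlaps, and P2ry1 held 2 GC boxes. Over all genes these letters did not separate the groups. The full element was in 2.7% of 486 promoters of genes higher in D1, 1.9% of 464 promoters of genes lower in D1 and 3.0% of 8659 tested promoters. The half-site was in 23.3%, 22.6% and 29.1%, and the GC box in 59.9%, 59.5% and 60.5%. For all 27025 listed promoters the shares were 1.6%, 17.9% and 32.9%. A match is a description of letters and does not show a bound site.

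Transcription factors of striatal projection neurons differed in both directions. Of 38 tested, 8 were higher in D1 and 12 lower in both fits, against 5.72% and 5.45% of all genes. Isl1, a homeodomain factor that acts in the differentiation of direct pathway neurons, was at 7.33 to 14.7 CPM (median 12.0) in D1 libraries and at 0.127 to 2.21 CPM (median 1.01) in D2 libraries. The groups lay well apart and the log2 difference was 3.14 ± 0.17, adjusted p 1.6e-17. Ebf1, a helix-loop-helix factor of the same lineage, was at 15.9 to 44.1 CPM (median 27.6) and 0.189 to 4.56 CPM (median 1.41), also without overlap, with a log2 difference of 3.95 ± 0.22. Its interacting zinc finger protein Zfp521 differed by 1.74 ± 0.16. Ikzf1, the lymphoid zinc finger factor Ikaros, was low in both groups (5.14 ± 2.00 CPM against 0.562 ± 0.516 CPM) and 14 of 15 D1 libraries exceeded every D2 library.

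Sp9, a zinc finger factor needed for indirect pathway neurons, ran the other way, at 2.03 to 5.15 CPM (median 3.43) in D1 and 15.5 to 40.2 CPM (median 28.4) in D2 libraries. No D1 library reached the lowest D2 library, and the log2 difference was -2.78 ± 0.11 with an adjusted p of 5.1e-21. Meis1 (-1.26 ± 0.13), Six3 (-0.83 ± 0.12) and Foxp1 (-0.84 ± 0.11), homeodomain and forkhead factors of the striatum, were lower in D1 with partial overlap of the groups. Foxp1, whose loss disturbs striatal development, was at 381 ± 91.4 CPM in D1 and 678 ± 142 CPM in D2 libraries, and 13 of 16 D2 libraries exceeded every D1 library.

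Eya1, a phosphatase and transcriptional coactivator that works with homeodomain partners, had the largest log2 difference among the 11090 tested genes in the direction of D1. It was at 186 to 317 CPM (median 229) in D1 libraries and at 0.413 to 21.4 CPM (median 1.13) in D2 libraries. A single D2 library, named EM, reached 21.4 CPM. The log2 difference was 6.90 ± 0.26 overall and 6.58 within EM (adjusted p 1.8e-11). Nr4a2, an orphan nuclear receptor, was at 13.2 to 76.3 CPM (median 43.3) and 0.111 to 9.31 CPM (median 3.47), without overlap, and its prefrontal mean was 97.7 CPM. Nuclear hormone receptors as a list had 5 of 30 higher and 8 lower in the pooled fit. In both fits 3 were higher and 2 lower, with 2 to 4 lower as each library was left out. All 3 that were higher in both fits met the cortical criterion. The 2 lower in both fits were Thrb, the thyroid hormone receptor beta (-1.05 ± 0.13), and Nr3c1, the glucocorticoid receptor (-0.64 ± 0.08). Nr3c1 was at 23.3 to 32.8 CPM (median 28.8) and 33.2 to 60.1 CPM (median 45.8), so the groups lay apart at a small difference of levels.

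Enzymes that modify chromatin were lower in D1 more often than higher. Of 117 tested, 32 were lower and 8 higher in the pooled fit, and 12 were lower and 3 higher in both fits, with a median of -0.12 that ran from -0.15 to -0.03 over the alternatives other than leaving out 1 library. Tet2 (-0.92 ± 0.12) and Tet1 (-0.80 ± 0.14), which oxidise methylated cytosine, Kdm6b (-0.99 ± 0.18), a demethylase of histone H3 lysine 27, and Kat2b (-0.87 ± 0.13), an acetyltransferase, were among those lower in both fits. Tet2 was at 11.4 to 30.9 CPM (median 18.8) in D1 and 27.0 to 62.3 CPM (median 38.4) in D2 libraries, and 14 of 16 D2 libraries lay above every D1 library. Scaled to the reads in listed genes, the pooled counts for the list were 23 lower and 9 higher, and without the 4 libraries that stand apart 17 were lower and 4 higher in both fits.

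Adora2a, Nt5e and P2ry1 were each among the 15 genes with the largest log2 differences toward D2, among those called in both fits with a D2 mean of at least 5 CPM. Adora2a encodes an adenosine receptor, which couples to the olfactory-type stimulatory G protein in indirect pathway neurons. It was at 1.54 to 10.3 CPM (median 3.15) in D1 and 52.7 to 376 CPM (median 245) in D2 libraries, with no overlap although the D2 libraries varied widely, and the log2 difference was -5.74 ± 0.24. Nt5e, the ecto-5′-nucleotidase that makes extracellular adenosine from AMP, was at 0.0968 to 1.34 CPM (median 0.730) and 11.4 to 20.4 CPM (median 15.2), a log2 difference of -3.80 ± 0.12 with an adjusted p of 4.6e-24. P2ry1, an ADP receptor, was at 0.246 to 2.23 CPM (median 0.980) and 11.8 to 50.6 CPM (median 19.5) (-3.89 ± 0.20). In each of these 3 genes every D2 library lay above every D1 library.

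Further receptors differed in both directions. Gpr6, an orphan receptor that raises cyclic AMP constitutively, was at 0 to 1.75 CPM (median 0.979) in D1 and 32.7 to 58.9 CPM (median 41.7) in D2 libraries, a log2 difference of -5.03 ± 0.16. Chrm4, the M4 muscarinic receptor of direct pathway neurons, was at 11.6 to 27.6 CPM (median 20.8) and 0.219 to 3.22 CPM (median 1.61) in the opposite direction, with a difference of 3.41 ± 0.15. Oprd1, the delta opioid receptor, was lower in D1 (-3.80 ± 0.18), as were the serotonin receptor Htr2c (-1.36 ± 0.12), the histamine receptor Hrh3 (-1.08 ± 0.16), the tachykinin receptor Tacr1 (-1.66 ± 0.18) and the orphan receptor Gpr149 (-1.77 ± 0.14). Orphan receptors higher in D1 were Gpr139 (2.01 ± 0.20), Gpr26 (1.73 ± 0.09) and the zinc receptor Gpr39 (1.55 ± 0.19), and the adrenergic receptor Adra2c was also higher (1.52 ± 0.16). Over the lists, 7 of 41 orphan and other class A receptors were higher and 5 lower in both fits, and of 18 muscarinic, serotonin, adrenergic, histamine and adenosine receptors 4 were higher and 5 lower. Of 13 neuropeptide receptors, 6 were higher and 3 lower in the pooled fit and 4 higher and 2 lower in both fits, and 3 of those 4 met the cortical criterion. Their median was 0.32 in the pooled fit and 0.07 within EM, and changed sign over the alternatives other than leaving out 1 library (-0.30 to 0.44).

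**Figure D2:**
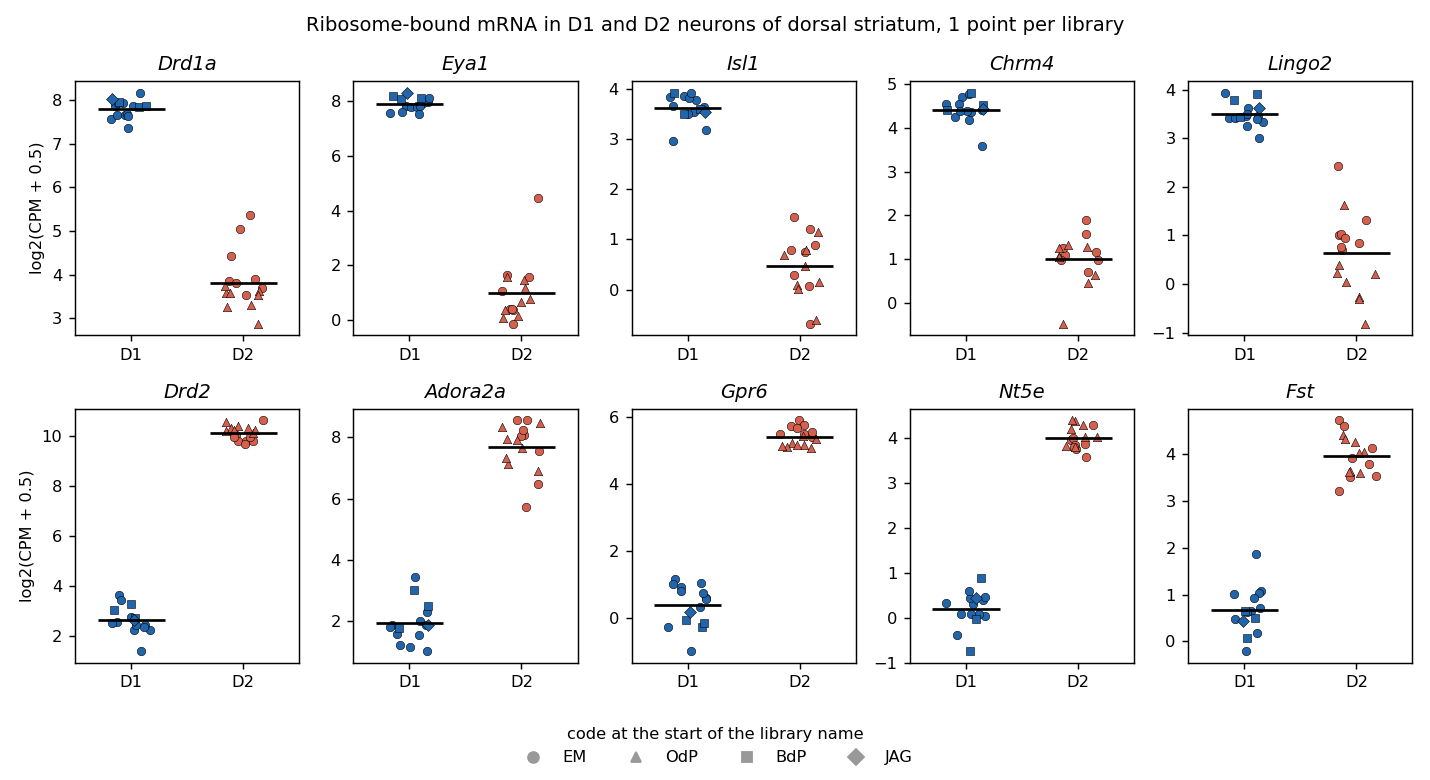
Levels of 10 genes as log2(CPM + 0.5), with 1 point per library, 15 in D1 (blue) and 16 in D2 (red); the point's shape is the code that starts the library's name and the bar is the group mean. In all 10 genes the D1 and D2 libraries do not overlap. The libraries named EM are a part of these groups, so their separation follows from this and is no separate check.

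The G protein subunits that pass on these signals were split by family member. Of 24 tested, 8 were higher and 3 lower in D1 in both fits, and 5 of the 8 met the cortical criterion. The median was 0.21 overall and 0.05 within EM, and ran from -0.11 to 0.27 over the alternatives other than leaving out 1 library. Gnb4, a beta subunit, was at 19.9 to 43.0 CPM (median 30.9) in D1 and 1.58 to 9.78 CPM (median 4.75) in D2 libraries, without overlap, and differed by 2.78 ± 0.15. Its prefrontal mean was 47.6 CPM, 1.42 times the D1 dorsal mean. The gamma subunits Gng2 (2.62 ± 0.22) and Gng4 (2.00 ± 0.17) and the inhibitory alpha subunit Gnai1 (1.54 ± 0.16) were higher in D1 and had prefrontal means of 313 CPM, 48.5 CPM and 245 CPM. The 3 lower genes were Gnal, Gng7 and Gnao1. Gnal, the olfactory-type stimulatory alpha subunit, was at 502 to 1043 CPM (median 621) and 748 to 1566 CPM (median 1311), a log2 difference of -0.72 ± 0.13. Gng7, its gamma partner, differed by -0.47 ± 0.12, and Gnao1, the abundant alpha subunit Go, by -0.57 ± 0.11. The groups overlapped in each: 11, 7 and 4 of 16 D2 libraries lay above every D1 library for Gnal, Gng7 and Gnao1. Without the OdP libraries, adjusted p was 0.0652 for Gnal and 0.257 for Gng7, and under quantile normalization 0.104 for Gng7. Among regulators of G protein signalling, 2 of 16 were higher (Rgs12, 1.20 ± 0.17, prefrontal mean 25.6 CPM, and Gpsm1, 1.16 ± 0.17) and 2 lower (Rgs8, -0.44 ± 0.09, and Rgs7bp, -0.67 ± 0.14, whose adjusted p was 0.205 without OdP libraries).

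Among enzymes of second messengers, Gucy1a3 and Gucy1b3, the subunits of the soluble guanylyl cyclase that nitric oxide activates, were both lower in D1. Gucy1a3 was at 57.6 to 105 CPM (median 71.7) in D1 and 186 to 521 CPM (median 291) in D2 libraries (-1.96 ± 0.13), and Gucy1b3 at 53.9 to 75.7 CPM (median 61.4) and 92.1 to 127 CPM (median 113) (-0.78 ± 0.07). In neither did the groups overlap. Pde1a, a calcium-dependent phosphodiesterase, was higher in D1 (2.22 ± 0.17; prefrontal mean 262 CPM), and the cyclic AMP phosphodiesterase Pde4b was lower (-0.73 ± 0.14; adjusted p 0.0703 without OdP libraries). Prkar1b, a regulatory subunit of protein kinase A, was higher in D1 without overlap (138 ± 23.2 CPM against 68.3 ± 10.1 CPM; prefrontal mean 299 CPM). Arpp19, a phosphatase inhibitor regulated by phosphorylation, was at 404 to 626 CPM (median 503) in D1 and 654 to 1186 CPM (median 749) in D2 libraries, also without overlap.

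Of 36 phospholipase C, diacylglycerol kinase and protein kinase C genes, 7 were higher and 2 lower in both fits, and 1 of the 7 met the cortical criterion. Dgkz, which phosphorylates diacylglycerol and so ends its signal, was at 26.1 to 75.2 CPM (median 51.8) in D1 and 7.48 to 21.5 CPM (median 12.8) in D2 libraries, without overlap (1.91 ± 0.12; prefrontal mean 102 CPM). Prkch, protein kinase C eta, was higher (1.04 ± 0.11). It was at 32.2 to 52.9 CPM (median 44.4) and 15.4 to 31.8 CPM (median 20.6), and its prefrontal mean was 1.04 CPM. Prkd1, a protein kinase D that diacylglycerol also binds, was the opposite case, at 1.29 to 4.49 CPM (median 2.85) and 7.26 to 12.6 CPM (median 10.0) (-1.65 ± 0.12). Rasgrf2, a calcium-dependent exchange factor for Ras, was higher in D1 without overlap (2.51 ± 0.16, 23.7 ± 6.31 CPM against 3.88 ± 1.61 CPM). Of 76 Ras and MAP kinase regulators, 11 were higher and 14 lower in the pooled fit. In both fits 7 were higher and 5 lower, and 3 of the 7 met the cortical criterion. Without the 4 libraries that stand apart, 8 were higher and 8 lower in both fits.

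Among calcium sensors, calmodulin kinases and calcium buffers, 15 of 51 (29.4%) were higher in D1 and 5 (9.80%) lower in both fits, against 5.72% and 5.45% of all genes, and 8 of the 15 met the cortical criterion. The list's median was 0.20 and ran from 0.02 to 0.26 over the alternatives other than leaving out 1 library. Without the 4 libraries that stand apart the counts were 19 and 9. Necab1, an EF-hand protein of neurons, was among the lower genes. It was at 32.3 to 47.6 CPM (median 39.7) in D1 and 135 to 302 CPM (median 202) in D2 libraries, and the narrow D1 range lay wholly below the D2 range (-2.32 ± 0.10, adjusted p 4.4e-20). Neuronal calcium sensors of the visinin family split. Hpcal1 (7.12 ± 2.30 CPM against 1.28 ± 0.657 CPM; 2.13 ± 0.18), Ncald (2.80 ± 0.27; prefrontal mean 326 CPM) and Vsnl1 (1.92 ± 0.23; prefrontal mean 1932 CPM) were higher in D1. Hpca, hippocalcin, was lower, at 885 to 2421 CPM (median 1848) in D1 and 1433 to 4057 CPM (median 3319) in D2 libraries (-0.79 ± 0.14). The plasma membrane calcium pump Atp2b4 was higher in D1 (1.29 ± 0.13; prefrontal mean 94.8 CPM), and the calmodulin kinase Camk4 lower (-0.54 ± 0.12; adjusted p 0.295 without OdP libraries).

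Among ion channels, potassium channels were more often higher in D1: 15 of 54 were higher and 6 lower in the pooled fit, 11 and 2 in both fits, and 7 of the 11 met the cortical criterion. The list's median was 0.13 and ran from 0.05 to 0.21 in the same way. As each library was left out, 9 to 14 were higher and 1 to 4 lower in both fits. Without the 4 libraries that stand apart, 16 were higher and 4 lower in both fits. Kcnk2, the background channel TREK-1, was among those lower in D1. It was at 26.5 to 64.2 CPM (median 33.7) in D1 and 72.7 to 149.8 CPM (median 94.6) in D2 libraries, with no overlap, and differed by -1.44 ± 0.13. Kcnj3, a channel that G protein beta-gamma subunits open, was higher in D1 (0.64 ± 0.13; prefrontal mean 50.1 CPM), as was the Shaker-type channel Kcna6 (1.06 ± 0.15; prefrontal mean 41.3 CPM). Scn3b, an auxiliary subunit of sodium channels, was lower in D1 (-0.82 ± 0.13). Auxiliary subunits of calcium channels differed in opposite directions, Cacnb3 being higher (0.69 ± 0.08) and Cacnb2 lower (-0.82 ± 0.11). Cacnb2 was at 81.4 to 167 CPM (median 112) in D1 and 129 to 299.7 CPM (median 220.5) in D2 libraries, and 13 of 16 D2 libraries lay above every D1 library. Of 12 sodium channel genes, 2 were higher and 2 lower, in the pooled fit and in both fits. Of 16 calcium channel genes, 3 were higher and 6 lower in the pooled fit, and 3 were higher and 2 lower in both fits. Without the 4 libraries that stand apart, 3 calcium channel genes were higher and 4 lower in both fits.

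**Figure D3:**
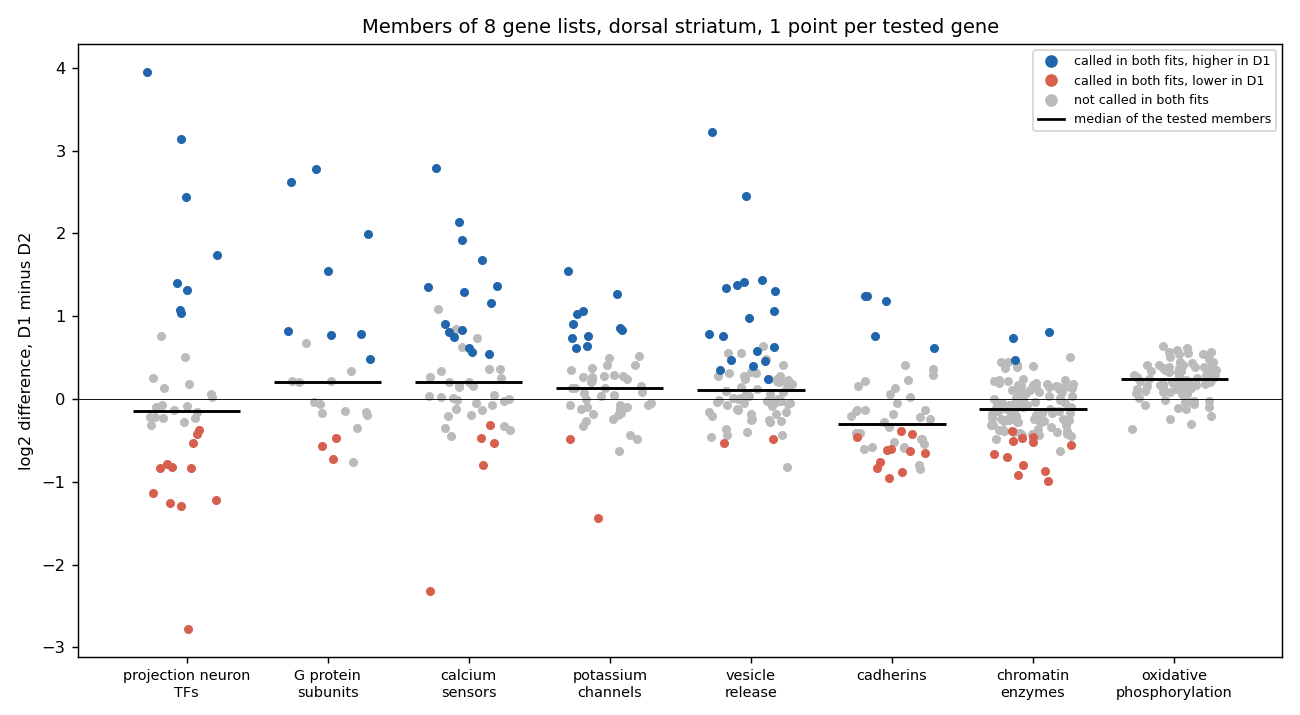
Log2 differences, D1 minus D2, of every tested member of 8 gene lists in dorsal striatum; colour marks the genes called in both fits (blue higher in D1, red lower) and the bar is the median of the list's tested members. Calcium sensors (15 higher, 5 lower) and vesicle release genes (18 and 2) have more blue points above 0, cadherins (5 and 11) and chromatin enzymes (3 and 12) more red points below it, and oxidative phosphorylation genes lie close together with 0 called in both fits.

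At the synapse, transmitter receptor genes differed in both directions. Of 40 glutamate receptor and auxiliary subunit genes, 11 were lower and 7 higher in the pooled fit, and 6 were lower and 1 higher in D1 in both fits. Scaled to the reads in listed genes, 8 were lower and 7 higher in the pooled fit, and without the 4 libraries that stand apart 11 were lower and 5 higher in both fits. The list's median ran from -0.23 to 0.01 over the alternatives other than leaving out 1 library. Grik3, a kainate receptor subunit, was at 3.14 to 18.6 CPM (median 12.0) in D1 and 44.3 to 135 CPM (median 100.4) in D2 libraries, without overlap (-3.24 ± 0.18). Neto2, an auxiliary subunit of kainate receptors, was lower as well (-0.80 ± 0.18), with an adjusted p of 0.236 without OdP libraries. Shisa6, an auxiliary subunit of AMPA receptors, was the 1 gene higher in D1 (1.10 ± 0.15). Of 25 genes of GABA and glycine transmission, 5 were lower and 3 higher in both fits, 4 and 3 when scaled to the reads in listed genes and 10 and 3 without those 4 libraries, and the median ran from -0.17 to 0.01. The GABA receptor subunits Gabrg3 (-1.31 ± 0.17) and Gabra2 (-0.90 ± 0.18) were lower in D1. Gad1, the GABA-making enzyme, was at 93.1 ± 27.2 CPM and 141 ± 39.4 CPM (-0.60 ± 0.14), and its adjusted p was 0.361 without OdP libraries. Of 84 genes of the vesicle release machinery, 24 were higher and 10 lower in the pooled fit. In both fits 18 (21.4%) were higher in D1 and 2 lower, with 0 to 4 lower as each library was left out, 6 of the 18 meeting the cortical criterion, with a median of 0.11 (0.02 to 0.17). Cadps2, which primes dense-core vesicles (2.45 ± 0.26; prefrontal mean 76.3 CPM), and the plasma membrane SNARE protein Stx1a (1.42 ± 0.20; prefrontal mean 62.3 CPM) were among the higher genes.

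Synaptic adhesion genes differed in both directions. Of 85 tested, 18 were higher and 20 lower in D1 in the pooled fit, with a median of -0.07. In both fits 12 were higher and 9 lower, and 5 of the 12 met the cortical criterion. Nrxn2, a presynaptic neurexin, was at 2.39 to 18.1 CPM (median 13.5) in D1 and 9.52 to 51.9 CPM (median 32.3) in D2 libraries, a log2 difference of -1.23 ± 0.22, and the groups overlapped. Among the Slitrk proteins, Slitrk6 was at 0 to 2.31 CPM (median 0.272) in D1 and 3.15 to 19.8 CPM (median 9.50) in D2 libraries (-3.38 ± 0.23), while Slitrk1 was higher in D1 (1.20 ± 0.14; prefrontal mean 61.2 CPM). Cntnap3, a contactin-associated protein (5.62 ± 1.14 CPM against 0.470 ± 0.264 CPM), was higher in every D1 library than in any D2 library. The same held for the leucine-rich repeat protein Lingo2, at 7.49 to 14.8 CPM (median 10.4) in D1 and 0.0689 to 4.85 CPM (median 1.15) in D2 libraries. Flrt3 (-0.93 ± 0.12) and Lrrtm2 (-0.81 ± 0.15), postsynaptic organisers, were lower with overlap.

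Cadherins were more often lower in D1 than higher. Of 48 cadherins and protocadherins, 21 were lower and 7 higher in the pooled fit, and 11 (22.9%) were lower and 5 (10.4%) higher in both fits. The list's median was -0.31, beside 0.02 over all tested genes, and lay between -0.38 and -0.16 under the alternatives other than leaving out 1 library. Without the 4 libraries that stand apart 16 were lower and 8 higher in both fits. Cdh11, a classical cadherin, was at 10.0 to 28.9 CPM (median 16.4) in D1 and 22.5 to 39.5 CPM (median 33.2) in D2 libraries (-0.95 ± 0.13), with 11 of 16 D2 libraries above every D1 library, and Pcdh17 differed by -0.83 ± 0.16 (adjusted p 0.051 without OdP libraries). Cdh4 was higher in D1 (1.18 ± 0.19). Ptprm, a receptor phosphatase that binds its own kind on adjacent cells, separated the groups, at 1.01 to 8.96 CPM (median 3.53) and 16.1 to 36.0 CPM (median 28.5) (-2.74 ± 0.16). The guidance ligand Sema3e was at 8.51 to 20.1 CPM (median 11.4) in D1 and 26.6 to 39.6 CPM (median 30.7) in D2 libraries, without overlap (-1.38 ± 0.10), and Sema3a was lower with overlap (-0.58 ± 0.11). Of 22 semaphorins, plexins and neuropilins, 4 were higher and 3 lower in both fits, and 3 of the 4 met the cortical criterion. The netrin receptors Unc5d (2.86 ± 1.14 CPM against 9.31 ± 3.12 CPM) and Unc5c (8.53 ± 2.17 CPM against 17.3 ± 5.49 CPM) were lower in D1. Of 10 ephrins and Eph receptors tested, 2 were lower in both fits (Epha7, -0.59 ± 0.13, and Epha4, -0.48 ± 0.09) and 0 higher. At an unadjusted p under 0.05 in both limma fits 4 were lower and 0 higher, and by edgeR and DESeq2 3 and 4 were lower and 0 higher. Without the 4 libraries that stand apart 5 were lower in both fits, scaling to the reads in listed genes gave 3 lower and 1 higher in the pooled fit, leaving out 1 library gave 1 to 3 lower in both fits, and the list's median ran from -0.32 to 0.11. In the matrix, Reln, reelin, was higher in D1 (44.7 ± 7.41 CPM against 27.5 ± 4.59 CPM; 0.69 ± 0.09), and so was Spon1 (1.51 ± 0.14; prefrontal mean 22.9 CPM).

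Genes of TGF-beta and BMP signalling were more often lower in D1. Of 33 genes, 7 (21.2%) were lower and 2 higher in both fits, and the list's median was -0.19. Over the alternatives other than leaving out 1 library the median ran from -0.23 to -0.01, and without the 4 libraries that stand apart 9 were lower and 3 higher in both fits. Fst, follistatin, which binds and blocks activins, was at 0.367 to 3.14 CPM (median 1.07) in D1 and 8.72 to 26.0 CPM (median 15.1) in D2 libraries, without overlap (-3.29 ± 0.16, adjusted p 1.7e-18). The activin receptor Acvr2a (-0.78 ± 0.13), the BMP receptor Bmpr1a (-0.69 ± 0.15; adjusted p 0.104 without OdP libraries) and the ligand Bmp7 (-1.27 ± 0.19) were lower as well, with overlap. Neuregulins split: Nrg3 was higher in D1 (10.2 ± 3.20 CPM against 3.47 ± 1.87 CPM, prefrontal mean 20.7 CPM) and Nrg1 lower (-0.65 ± 0.15). Of 32 neurotrophin, FGF, neuregulin and GDNF family genes, 9 were higher and 4 lower in both fits, and 4 of the 9 met the cortical criterion.

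**Figure D4:**
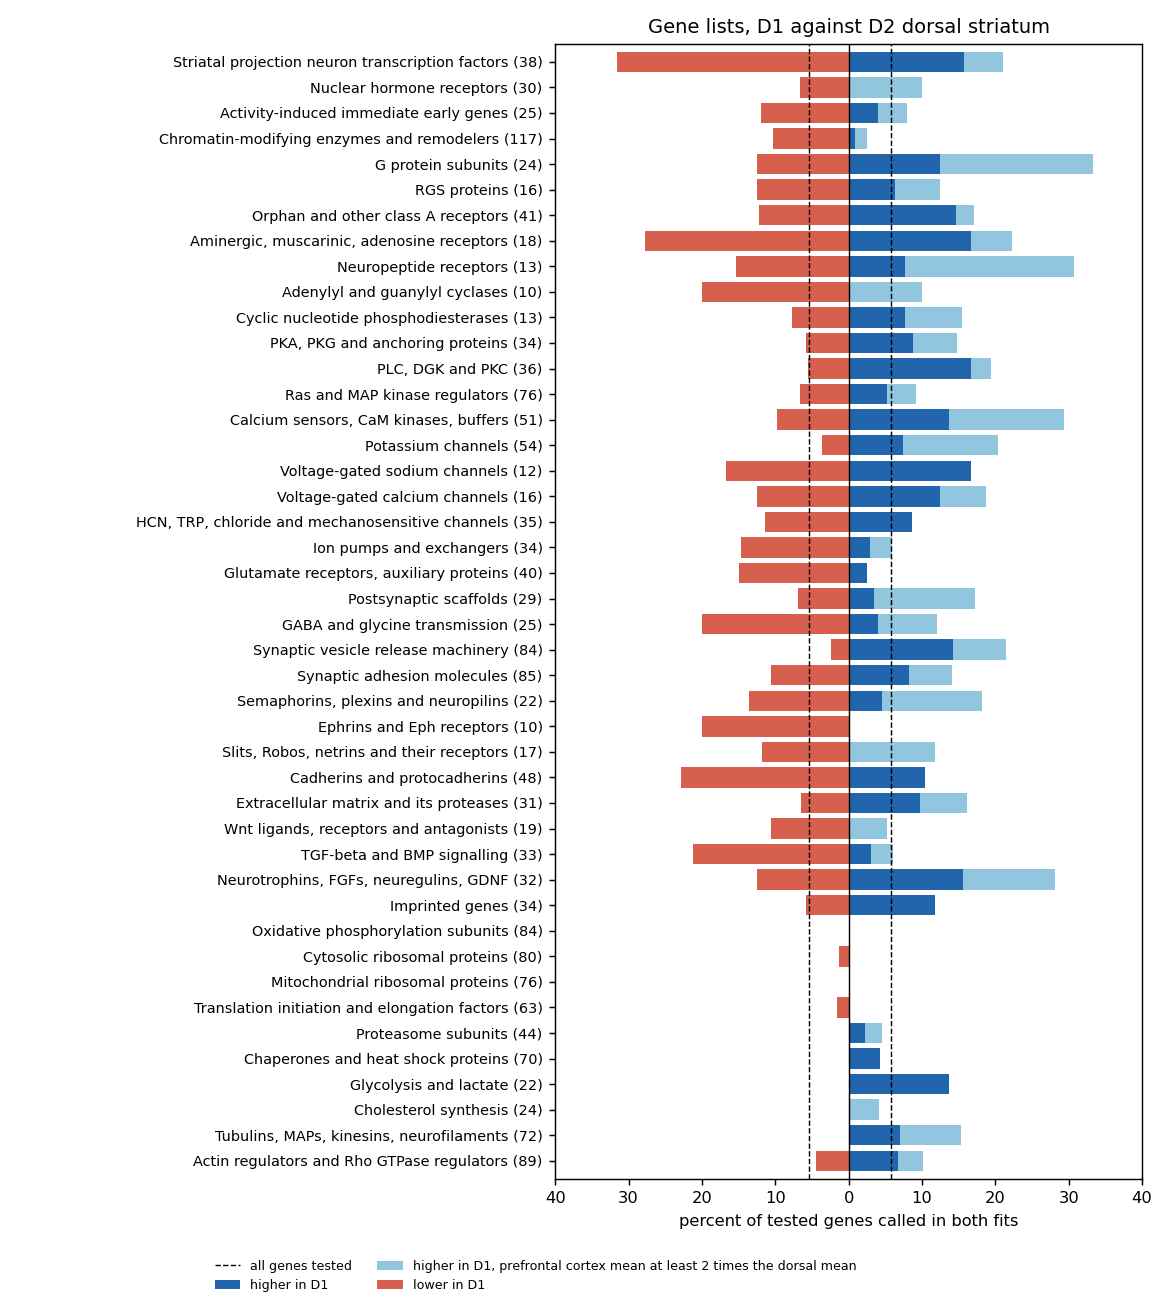
For each gene list with at least 10 tested genes (number in brackets), bars to the right show the percent called higher in D1 in both fits, with the part whose prefrontal mean was at least 2 times the higher dorsal mean in light blue, and bars to the left the percent called lower; dashed lines are the values for all tested genes, 5.72% and 5.45%. Transcription factors and cadherins reach farthest to the left among the lists of more than 20 genes, G protein subunits, calcium sensors and vesicle release genes are long on the right, and oxidative phosphorylation and ribosomal proteins are near 0 on both sides.

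In the pooled fit the lists of energy metabolism, cytosolic ribosomal proteins and microtubules given here had at most 2 genes each that were lower in D1. Of 84 nuclear-encoded subunits of oxidative phosphorylation, 6 (7.14%, against 12.8% of all tested genes) were higher and 0 lower in the pooled fit. In both fits 0 were called by limma, edgeR or DESeq2, with 5 higher at an unadjusted p under 0.05 in both limma fits. Their median difference was 0.24 in the pooled fit and 0.09 within EM and ran from -0.09 to 0.30 over the alternatives other than leaving out 1 library, while the number higher in the pooled fit ran from 0 (without D1 replicate 4) to 20 (without D1 replicate 1) as each library was left out. Cytosolic ribosomal proteins had medians of 0.24 and 0.06, with a range of -0.20 to 0.30 and of 0 to 12 higher genes in the same way. Of 80 tested, 3 (3.75%) were higher and 1 lower in the pooled fit, and 1 was called in both fits. That gene was Rpl10a, which encodes the protein that is fused to the fluorescent tag in the transgene. It was lower in D1, at 104 to 169.7 CPM (median 129) against 134 to 233 CPM (median 181) (-0.49 ± 0.09), and reads of the transgene and of the chromosomal gene cannot be told apart in a gene-level table. Of 22 genes of glycolysis and lactate handling, 9 (40.9%) were higher in the pooled fit, with a median of 0.31 there, 0.12 within EM and 0.06 to 0.43 over those alternatives. Without D1 replicate 13, 7 were higher in both fits, against 2 or 3 without any other library. The 3 higher in both fits of all libraries were Eno1 (178 ± 38.9 CPM against 116 ± 20.1 CPM), Hk1 (0.57 ± 0.12; adjusted p 0.0606 without OdP libraries) and Pfkp. Pfkp, a phosphofructokinase, was at 77.8 to 103 CPM (median 85.8) and 50.6 to 70.9 CPM (median 65.3) and did not overlap. Tubulins, microtubule-associated proteins, kinesins and neurofilaments had 22 of 72 higher and 2 lower in the pooled fit, with a median of 0.16 (0.11 to 0.23), and 11 higher and 0 lower in both fits, also 0 lower by edgeR and DESeq2 and 3 lower at an unadjusted p under 0.05 in both limma fits. Without D1 replicate 13, 18 were higher in both fits, and without the 4 libraries that stand apart 20 were higher and 2 lower. The stathmins Stmn2 (2.27 ± 0.17; prefrontal mean 232 CPM) and Stmn1 (2.17 ± 0.29; prefrontal mean 425 CPM) were among the higher genes, and 6 of the 11 met the cortical criterion.

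Some of the largest differences lay next to the receptor genes whose promoters drive the transgenes. In GRCm38, Drd1a lies at chr13:54051183-54055658 and Sfxn1, a mitochondrial serine carrier, 16 kb away at chr13:54071656-54108346. Sfxn1 was at 105 to 221 CPM (median 164) in D1 and 10.4 to 30.3 CPM (median 14.2) in D2 libraries, without overlap, a log2 difference of 3.24 ± 0.14. Drd2 lies at chr9:49340360-49408177, with Ankk1, a kinase-like gene, 7.0 kb away and Ttc12, a tetratricopeptide repeat gene, 28.8 kb away (chr9:49415194-49427041 and chr9:49436961-49486275). Ttc12 was at 0 to 0.421 CPM (median 0.0839) in D1 and 103 to 214 CPM (median 128) in D2 libraries, and its log2 difference of -7.75 ± 0.11 was larger than that of Drd2 itself. Ankk1 was at 0 to 0.158 CPM (median 0.0227) and 7.57 to 22.4 CPM (median 13.7) (-4.71 ± 0.12). Within 500 kb, a window chosen after the values were seen, 3 of 6 tested neighbours of Drd1a were called higher in both fits and 2 of 6 of Drd2 lower. The other neighbours that were called were Hrh2 (136.3 kb, log2 difference 1.06) and Cplx2 (246.3 kb, 0.39), both by Drd1a. Ncam1, 94.0 kb from Drd2, differed by -0.20 with an adjusted p of 0.32. A BAC holds genomic sequence around the gene whose promoter it supplies. Which genes these BACs hold is not given in the sources used here. Expression from the transgene and from the chromosome therefore cannot be told apart for these neighbours, nor for Drd1a and Drd2 themselves.

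The differences were mostly shared with the ventral striatum, where 5443 (47.7%) of 11410 genes were called between D1 and D2. Of the 1238 genes called in both dorsal fits, 1202 were tested there, and 957 (79.6%) were called in the same direction, 10 in the opposite direction and 235 not at all. The D1 minus D2 difference itself was tested against region in an interaction contrast over the 60 striatal libraries, which called 313 (2.64%) of 11873 genes, among them 177 of the 1238. Of the 313, 229 had a positive and 84 a negative interaction, which is the dorsal minus the ventral difference. The labels do not say whether dorsal and ventral pools came from the same mice, and the fit treated all pools as independent. With a block on the 27 dorsal and ventral pairs of adjacent library names, a pairing the labels do not state, 689 genes were called, all 313 among them.

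Several genes lower in D1 differed more in the dorsal than in the ventral striatum. The genes named here were chosen by their dorsal calls, and that choice favours a larger dorsal difference. Gpr6 differed by -5.03 ± 0.16 in dorsal and -2.73 in ventral striatum, an interaction of -2.30 with an adjusted p of 9.1e-13. For Adora2a the values were -5.74 ± 0.24 and -3.65 (interaction adjusted p 1.1e-05), for Nt5e -3.80 ± 0.12 and -2.55 (7.2e-07), and for the peptide precursor Penk -5.42 ± 0.13 and -3.49 (1.7e-11). Among genes higher in D1, Ebf1 had 3.95 ± 0.22 and 2.21 (2.0e-05) and Fhl2, a LIM protein, 2.98 ± 0.15 and 1.16 (1.1e-07; prefrontal mean 21.1 CPM). Slitrk1 was higher in D1 in dorsal striatum (1.20 ± 0.14) and lower in ventral striatum (-0.29, adjusted p 0.024), and Kcnj3 did likewise (0.64 ± 0.13 and -0.45, adjusted p 0.018). Meis1 was lower in D1 in dorsal striatum (-1.26 ± 0.13) and was not called in ventral striatum (-0.07, adjusted p 0.72), with an interaction adjusted p of 7.8e-05. For Fam163b the values were -1.79 ± 0.16 and -0.08 (adjusted p 0.71 in ventral striatum, interaction 4.5e-07). For P2ry1 (-3.89 ± 0.20 and -3.80), Gucy1a3 (-1.96 ± 0.13 and -1.93) and Prkd1 (-1.65 ± 0.12 and -1.59) the interaction was not called: it was -0.09 ± 0.24, -0.03 ± 0.19 and -0.07 ± 0.16.

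**Figure D5:**
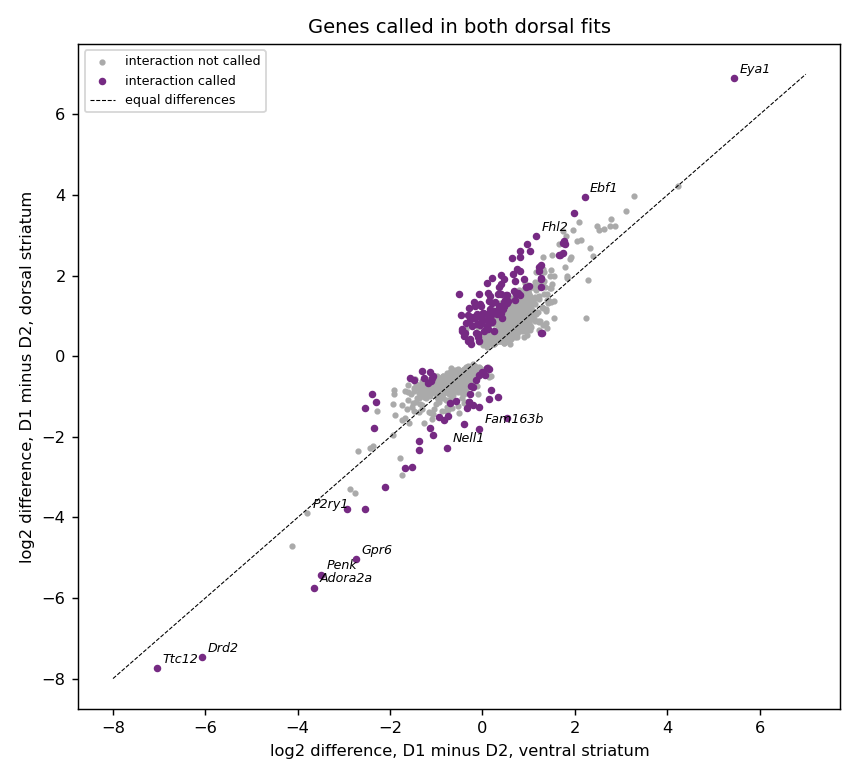
Each point is 1 of the 1202 genes called in both dorsal fits and tested in ventral striatum; axes are the log2 differences, D1 minus D2, in ventral (horizontal) and dorsal (vertical) striatum, purple points were called in the interaction contrast and the dashed line marks equal differences. Most points lie in the quadrants of equal sign, and Gpr6, Adora2a, Penk and Ebf1 lie on the side of the larger dorsal difference.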

How the data were processed

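The authors deposited 1 table of CPM for all 79 libraries. Per the submitters' processing notes, reads were handled with Trim Galore 0.4.2, cutadapt 1.9.1, FastQC and HISAT2 against GRCm38. The counter and annotation are not given in the sources used here. All table columns were matched to samples (0 unmatched). Dividing each column by its smallest step gave whole reads for 100% of values within 0.1 read.

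D1 and D2 dorsal libraries were compared with limma 3.58.1 in R 4.3.3 (linear model with a trended variance, equal weights) on log2(CPM + 0.5), for genes with at least 1 CPM in at least 15 libraries. Adjusted p (Benjamini-Hochberg over all tested genes, two-sided) had to be under 0.05. The same fit was made within EM libraries, in ventral striatum, as an interaction and between EM and OdP within D2. Values after ± are SD beside CPM and standard errors beside log2 differences, with n = 15 D1 and n = 16 D2. The scripts were tested on simulated data. edgeR 4.0.16 and DESeq2 1.42.0 on recovered reads, other scalings, filters, covariates and leaving out each library were alternatives. No 2 libraries agreed within sampling noise: over 225 pairs the lowest chi-square per degree of freedom was 7.96. The labels do not say whether libraries share mice, so p-values measure the spread between pools.

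Members and gene lists were chosen with earlier results of these data known. Genes were named from Drd1a and Drd2, up to 15 per direction by log2 difference among genes called in both fits whose higher group averaged 5 CPM or more, up to 4 per direction in each list, up to 5 per direction from the interaction, and any tested cell type marker. Fam84b, Hrh2, Cplx2 and Ncam1 were named after their values were seen. Some genes are not reported here. Promoters came from RefSeq (GRCm38.p6), which matched 10814 (97.5%) of the tested genes.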

Additional observations from a re-analysis of the deposited data

Results flagged for a closer look

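The D1 minus D2 difference itself differed between dorsal and ventral striatum in these named genes by the interaction contrast in limma (60 libraries, log2, dorsal minus ventral). The named genes were chosen by their dorsal calls and not by ventral ones, so the choice favoured a larger dorsal difference. Of the genes called in both dorsal fits and in the interaction, 150 of 165 with a ventral value differed more in dorsal striatum. Over all tested genes, 47.7% were called between D1 and D2 in ventral striatum, against 12.8% higher and 13% lower in dorsal striatum. Among genes called higher in D1 in both regions, with the larger size in dorsal striatum, were Ncald 1.83 (adjusted p 4.6e-04), Fhl2 1.82 (adjusted p 1.1e-07) and Ebf1 1.74 (adjusted p 2.0e-05). They also included Cadps2 1.64 (adjusted p 9.7e-04), Nr4a2 1.58 (adjusted p 0.0365) and Gng2 1.58 (adjusted p 2.1e-04). Further such genes were Eya1 1.46 (adjusted p 0.00619), Vsnl1 1.45 (adjusted p 7.3e-04) and Lingo2 1.10 (adjusted p 0.0236). To these came Adra2c 1.02 (adjusted p 0.00835), Stmn2 1.00 (adjusted p 0.0114) and Pde1a 0.99 (adjusted p 0.00171). Others were Gnb4 0.99 (adjusted p 2.0e-04), Rasgrf2 0.85 (adjusted p 0.00891) and Gnai1 0.81 (adjusted p 0.00835). The last of them were Zfp521 0.74 (adjusted p 0.0376), Dgkz 0.64 (adjusted p 0.0461) and Gpr26 0.46 (adjusted p 0.0447).

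Among genes called lower in D1 in both regions, with the larger size in dorsal striatum, were Gpr6 -2.30 (adjusted p 9.1e-13), Adora2a -2.09 (adjusted p 1.1e-05) and Penk -1.93 (adjusted p 1.7e-11). They also included Drd2 -1.40 (adjusted p 1.8e-05), Nt5e -1.25 (adjusted p 7.2e-07) and Ptprm -1.21 (adjusted p 2.7e-05). Further such genes were Grik3 -1.13 (adjusted p 0.00294), Sp9 -1.10 (adjusted p 5.5e-07) and Necab1 -0.95 (adjusted p 5.5e-06). To these came Oprd1 -0.86 (adjusted p 0.0497), Ttc12 -0.70 (adjusted p 0.00651) and Gpr149 -0.64 (adjusted p 0.0323).

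Meis1, Fam163b and Bmp7 were lower in D1 in dorsal striatum and not called in ventral striatum, where their adjusted p was 0.724, 0.708 and 0.159, and had interactions of -1.19 (adjusted p 7.8e-05), -1.71 (adjusted p 4.5e-07) and -0.95 (adjusted p 0.0392).

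Ikzf1 and Gpr139, higher in D1 in dorsal striatum and not tested in ventral striatum alone for their low levels there, had interactions of 1.72 (adjusted p 1.8e-05) and 1.61 (adjusted p 2.0e-05). Arpp19 was further apart in ventral striatum, with an interaction of 0.52 (adjusted p 0.00687). Slitrk1 and Kcnj3, whose differences had opposite signs in the regions, had interactions of 1.49 (adjusted p 1.8e-08) and 1.08 (adjusted p 3.2e-04). Libraries named OdP, BdP and JAG are spread unevenly over the groups, and without OdP libraries 201 of the 313 interaction calls remained among 294.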

How the results depend on the processing

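None of 114 genes described in the text, a part of those that the naming rule gave, changed direction under any alternative, and 11 lost their call in at least 1, chiefly without OdP libraries. The choice of genes called in both fits made a change of direction unlikely from the start. The genes called numbered 2871 in the main comparison, 1424 higher and 1447 lower, with 373 at least 2-fold different in either direction. A filter of 5 CPM in 15 libraries gave 911 higher, 201 at least 2-fold different and 368 higher in both fits. EM libraries alone gave 1300, 655 and 645. Leaving out OdP libraries gave 1202, 651 and 551, and the name code as a covariate 1658, 768 and 890; array weights gave 4806, 2482 and 2324, with 1225 higher and 1234 lower in both fits and 2870 called within EM. Without genes at least 2 times higher in cortex, 212 were at least 2-fold different and 350 were higher in both fits. Without the 4 libraries that stand apart, chosen after seeing the data, 2270 were called within EM and 991 were higher in both fits. The cause of these shifts was not tested. Leaving out 1 library at a time gave 2509 to 3588 called (highest without D1 replicate 13), 1238 to 1859 higher, 1237 to 1729 lower, 356 to 394 at least 2-fold different, 545 to 913 higher and 478 to 873 lower in both fits, and 1072 to 1917 within EM. edgeR called 2966 and DESeq2 3265. The interaction called 233 genes in EM libraries alone, 164 of them among the 313. Recovered reads of 7.35 to 30.2 M per library limit genes of low CPM. No paired analysis was possible because replicate numbers follow accession order and the labels tie no D1 library to a D2 library, which come from different lines. For the interaction, a dorsal and a ventral library with adjacent name numbers, the same code, receptor and sex makeup may share mice, which the labels do not state. In 24 of 27 such pairs the deviations from the group means correlated above 0.1 (median 0.296, lowest -0.306). Each pair lay within 1 code while the group means were taken over all codes. These correlations therefore cannot tell shared mice from a shared code. A block on these pairs, added after seeing the data, called 689 genes, all 313 among them.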
